A study of Mus musculus with 18 samples.

Results

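H/ACA box small nucleolar RNAs (snoRNAs, symbols starting with Snora) and small Cajal body RNAs (scaRNAs, symbols starting with Scarna) were followed in mouse embryonic stem (ES) cells exposed to cisplatin. The members were all RefSeq non-coding (NR_) rows with such a symbol in the long RNA expression tables. The table of the RNAome libraries held 44 of them, 35 Snora and 9 Scarna, among 17787 RefSeq rows, of which 935 were non-coding. The table of the mRNA libraries held 19, all of them Snora and all also in the RNAome table, among 18943 RefSeq rows. Snora35, Snora57, Snora73a and Snora73b were not analysed here.

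All cells were HPRT-deficient ES cells of strain C57BL/6 at passage 19 to 22, so the controls lack this purine salvage enzyme too. They had spent 2 passages on feeder cells and 1 on gelatin. Samples 8.3.3, 8.4.3 and 8.5.3 were given cisplatin, a DNA-damaging platinum compound, at 2.5 µM, and samples 8.4.16, 8.5.16 and 8.6.16 received an equal volume of the vehicle DMSO. How long the exposure lasted was not stated in the labels. Each of the 6 RNA samples went into 3 library types. The mRNA libraries came from the Illumina TruSeq mRNA kit, which selects poly(A) RNA. The RNAome libraries came from total RNA depleted of ribosomal RNA, sheared, ligated to small RNA adapters, amplified for 11 cycles and sized at 15 to 500 nt. The small RNA libraries came from a small RNA kit. The labels do not say whether the samples of a group were grown apart, so each p-value refers to the scatter among the samples at hand, some of which may be technical. In bulk RNA, fewer cells making an RNA and less of it per cell cannot be told apart.

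An H/ACA snoRNA folds into a hairpin, a hinge that carries the H box, a further hairpin and a short tail that carries the ACA box. Bound by dyskerin (Dkc1), Nop10, Nhp2 and Gar1, it pairs with a target RNA and directs the change of a uridine to pseudouridine, in most cases in ribosomal RNA. The scaRNAs do the same kind of work on spliceosomal RNAs in the Cajal body, some by the H/ACA and some by the C/D pathway. In mammals most are cut out of introns of host genes and trimmed to their ends, and the mature RNA carries no poly(A) tail.

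Of the 44 members, 40 had a gene of exactly the same symbol in GENCODE vM1 on build NCBIM37 (mm9), the build of the deposited coordinates. The 4 that did not were Snora15, Snora19, Snora24 and Snora26. A host gene on the same strand contained 37 of the 40, and 33 different host genes were counted. Ribosomal protein genes hosted 11 members and small nucleolar RNA host genes (Snhg) hosted 7. The annotated Snora genes were 127 to 196 bases long and the Scarna genes 70 to 414 bases. The sequences below belong to members on which the results turn. Snora34 stood out most from its surroundings. Snora52, Snora28 and Snora44 had abundant counts just outside the row that names them, Snora52 and Snora65 were the members called after cisplatin in the mRNA libraries, and Scarna8 had the lowest adjusted p in the RNAome libraries. They are written 5′ to 3′, read from the NCBIM37 genome at the GENCODE vM1 gene, with the H box (ANANNA) nearest the middle and the ACA box near the 3′ end in capitals.
Snora34: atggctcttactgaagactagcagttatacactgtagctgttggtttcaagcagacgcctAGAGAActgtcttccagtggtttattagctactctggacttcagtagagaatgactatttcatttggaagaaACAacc
Snora52: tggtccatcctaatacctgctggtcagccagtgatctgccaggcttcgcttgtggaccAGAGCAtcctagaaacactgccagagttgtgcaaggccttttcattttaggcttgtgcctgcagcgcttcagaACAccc
Snora28: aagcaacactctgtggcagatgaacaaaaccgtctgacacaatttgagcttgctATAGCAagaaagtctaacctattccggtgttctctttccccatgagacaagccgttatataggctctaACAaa
Snora44: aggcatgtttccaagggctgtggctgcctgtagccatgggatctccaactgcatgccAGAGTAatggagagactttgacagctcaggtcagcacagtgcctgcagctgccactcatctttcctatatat
Snora65: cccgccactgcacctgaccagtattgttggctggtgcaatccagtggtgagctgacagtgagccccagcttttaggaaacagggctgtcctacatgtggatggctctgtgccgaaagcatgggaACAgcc
Scarna8: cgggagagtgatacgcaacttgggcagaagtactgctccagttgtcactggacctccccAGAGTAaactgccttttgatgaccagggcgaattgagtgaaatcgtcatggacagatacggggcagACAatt

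Snora34 lies at chr15:98350147-98350284 on the minus strand in an intron of 2310037I24Rik. Snora52 lies at chr7:148634702-148634838 on the plus strand within Rplp2, and Snora65 at chr2:32818811-32818940 on the plus strand within Rpl12. Both overlap exons of some transcripts of these ribosomal protein genes. Snora28 lies at chr12:112779152-112779278 on the plus strand in an intron of Eif5, a translation initiation factor gene. Snora44 lies at chr4:131865856-131865984 on the plus strand within Snhg12, which also hosts Snora16a and Snora61. Scarna8 lies at chr4:86232357-86232487 on the minus strand in an intron of Haus6, a spindle gene.

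The letters ACA stood exactly 3 bases before the annotated 3′ end in 25 of 30 Snora genes (83.33%) outside chromosome 18, on the sense strand. The same test was met by 2 of 8 Scarna genes, by 1.316% of 76 equally long windows placed 1000 bases to either side, and by 23.99% of the 1063 GENCODE snoRNA genes of 100 to 200 bases. An H box match ANANNA that began at 40% to 65% of the length was found in 28 of the 30 Snora genes, in 6 of the 8 Scarna genes, in 80.9% of the GENCODE snoRNA genes and in 48.68% of the windows, so these letters are common by themselves. Snora44 had no ACA within 10 bases of its annotated end, and Snora65 had no H box match in the middle window. The most similar pair of members was Scarna3a and Scarna3b at 85.71% identity, and no other pair exceeded 69.57%.

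Total counts of the expression tables ran from 43404675 to 94373096 in the RNAome libraries and from 20365963 to 31604098 in the mRNA libraries. The RNAome library of control 8.4.16 was the shallowest over tested genes, with 4990980 counts against 6722430 to 19332000 in the others. It stood at 46.0 on the first principal component, which held 38.5% of the variance, while the others stood between −18.6 and 3.71. ES cell markers fitted the label: Pou5f1 was at 1175 to 1238 CPM (counts scaled to a common library size of 1e6) in the mRNA libraries. The p53 targets Cdkn1a, Mdm2 and Ccng1 were called higher after cisplatin in both assays. Of 8 ES cell markers, 6 were called lower in the mRNA libraries and 0 in the RNAome libraries, where 19.2% and 1.07% of genes were. Klf4, the lowest of the 8, was at 94.4 to 150 CPM in the mRNA libraries. None of 6 feeder fibroblast markers tested in the mRNA libraries was called, where 37.2% of genes were. Their RNA was present: Col1a1, the highest, was at 14.4 to 31.9 CPM and Col1a2 at 4.69 to 15.7 CPM. Postn, the lowest, was at 0.318 to 1.45 CPM. The share of feeder cells was not tested.

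In the RNAome libraries the members together took 0.0704% to 0.0927% of all counts after cisplatin and 0.0527% to 0.0881% in the controls, so the groups overlapped. In the mRNA libraries they took 0.0011% to 0.00134%. The C/D box snoRNAs, the other large snoRNA family, took 10.9% to 11.0% of RNAome counts after cisplatin and 5.46% to 10.2% in the controls. This was far more than the H/ACA members in every RNAome library. In the mRNA libraries they took 0.00122% to 0.00145%, a range that overlapped that of the members. Scarna members made up 5.59% to 6.02% of member counts after cisplatin and 4.63% to 5.06% in the controls, and these ranges did not overlap. Much of this share was Scarna17. It supplied 1482, 2089 and 1832 of the 3486, 4891 and 3763 Scarna counts after cisplatin. In the controls it supplied 450, 1115 and 632 of 1117, 3065 and 1492. For each of the 9 Scarna members by itself the groups overlapped. The Scarna share was not tested, and no shift of the class is read from it.

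Snora68 alone supplied 43.9% to 54.6% of member counts in the RNAome libraries. Its level was 1524, 1699 and 3100 CPM after cisplatin and 2283, 2736 and 1720 CPM in the controls. The groups overlapped, with cisplatin 8.5.3 highest and cisplatin 8.3.3 lowest. CPM values were scaled with TMM, a trimmed mean of ratios that corrects each library for its composition. Per kb of the counted span, as inferred from the deposited regions, Snora68 reached 22215 ± 6518 CPM per kb (SD, n = 6 libraries), and every library stood above every library of the next member.

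A group of 7 members came next in level per kb, and neighbours in their order overlapped. Snora43 and Snora17, neighbours in Snhg7, stood at 2224 ± 442 and 1713 ± 302 CPM per kb (SD, n = 6). Snora16a stood at 2017 ± 448, Snora52 at 1955 ± 284, Scarna17 at 1617 ± 558, Snora34 at 1384 ± 416 and Snora74a at 876 ± 205 CPM per kb (SD, n = 6 each). In none of these did all libraries exceed all libraries of the next in order, but all libraries of Snora43, Snora16a, Snora52 and Snora17 exceeded all of Snora74a. The value of Scarna17 rests on a counted span of 62 bases, shorter than the 79 of its GENCODE gene. It also rests on the choice of counts: the deposited abundance counts gave Scarna17 3936 in place of 7600. Those of Snora43, Snora16a, Snora34 and Snora74a were the same in both. Snora24, without a place and hence without a length, had 20246 counts, fewer only than Snora68, Snora43 and Snora16a.

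The lower end was thin. Snora47 had 42 counts over the 6 RNAome libraries, Snora15 had 46, Snora20 had 50 and Snora19 had 64. Snora20, Snora47 and Snora19 did not pass the filter on low counts, which left 41 members for the test. The highest and lowest placed members differed 5949-fold in mean CPM per kb.

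**Figure D1:**
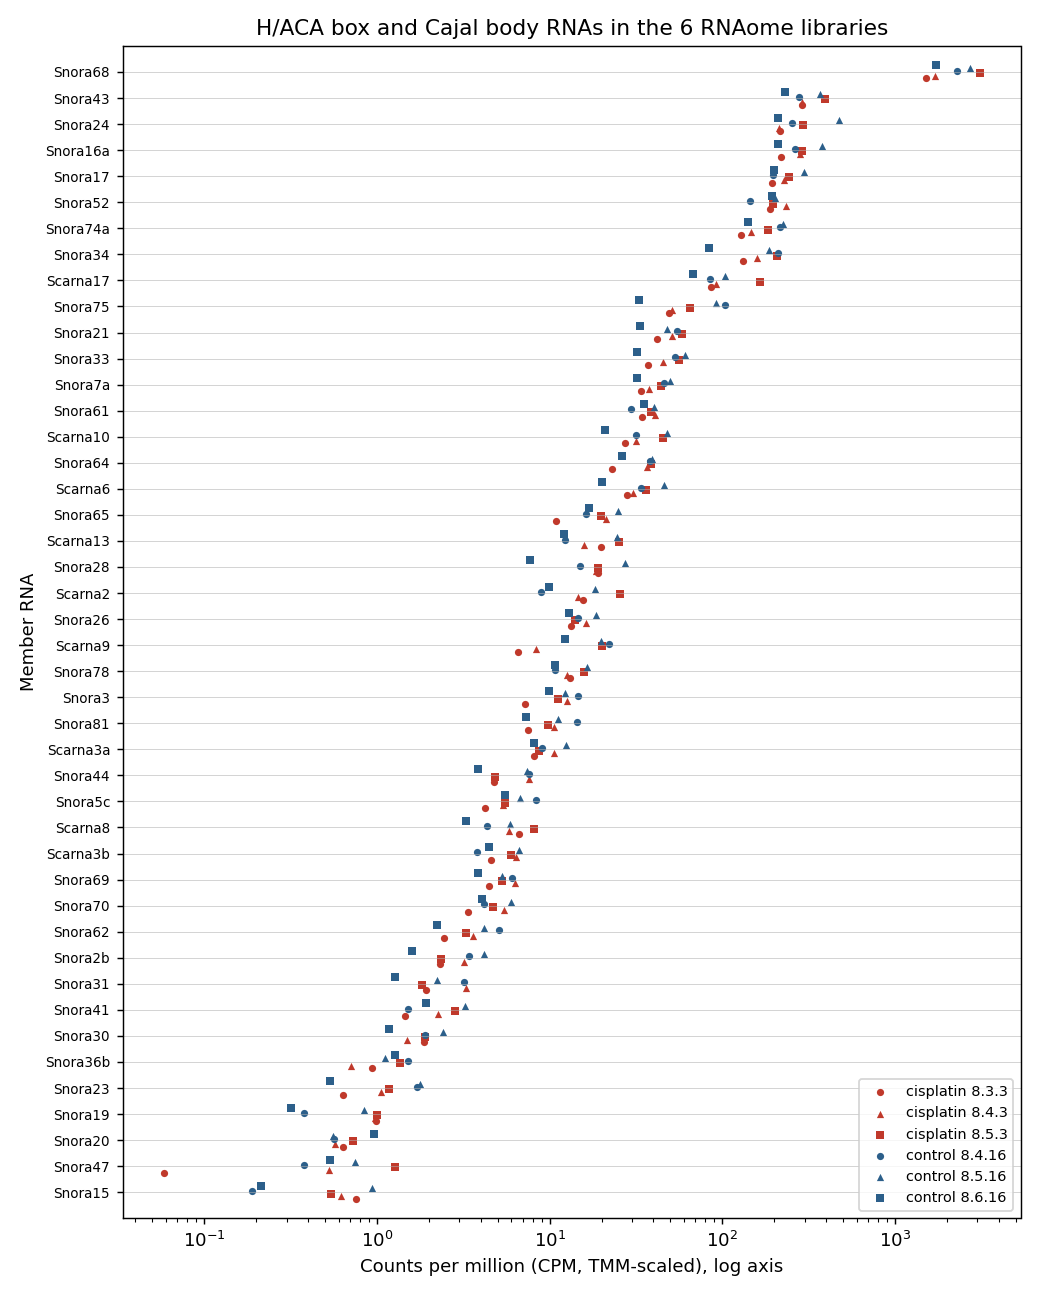
Each row is a member and each point its level in a single RNAome library, in TMM-scaled CPM on a log axis; red points are cisplatin samples and blue points are controls. Snora68 lies apart at 1524 to 3100 CPM, and red and blue points mix along all rows but that of Snora19, which was not tested.

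Which library was highest or lowest for most members depended on the scaling. With TMM, control 8.6.16 was the lowest library for 25 of the 41 tested members and control 8.5.16 the highest for 21. With total counts alone, cisplatin 8.5.3 was the lowest for 30 of 41. The TMM factors of these libraries were 1.40 for control 8.6.16, 0.786 for control 8.5.16 and 0.628 for cisplatin 8.5.3. Their part in the order of the libraries was not tested.

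The counts outside the named rows changed the picture of several members. The deposited long RNA tables also list genomic regions between RefSeq exons, so the span counted for a member was inferred from the gap between neighbouring regions. The authors' counting rule was not stated, and the values per kb rest on this inference. A span could be inferred for 33 members and was shorter than the GENCODE gene in 28 of them. Of the 33 regions on the 5′ side, 27 held the first 3 to 35 bases of the annotated gene (median 16). Of the 33 on the 3′ side, 14 held the last 1 to 25 bases (median 2).

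In the RNAome libraries 10 of the 33 regions on the 5′ side held more counts than the member itself, against 2 of the 33 on the 3′ side. The members below were chosen after these values were seen. The 5′ region of Snora28, 373 bases long with 5 inside the gene, held 64302 counts, whereas Snora28 itself had 1403. The 49-base 5′ region of Snora44, with 12 bases inside the gene, held 9882 counts, and the member had 463. The 58-base 5′ region of Snora52, with 30 bases inside the gene, held 15822 counts beside 15460 in the member. Snora31 had 4580 counts in its 5′ region and 180 in the member, and Snora62 had 1095 and 253. No other annotated small RNA lay in these 5 regions. Snora68 was the opposite case: 33 bases of its gene lay in the 5′ region, yet that region held 94 counts beside 156289 in the member. Snora34 likewise had 19 bases and 12 counts there, beside 12047 in the member. A short row thus did not always go with many counts next to it.

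**Figure D2:**
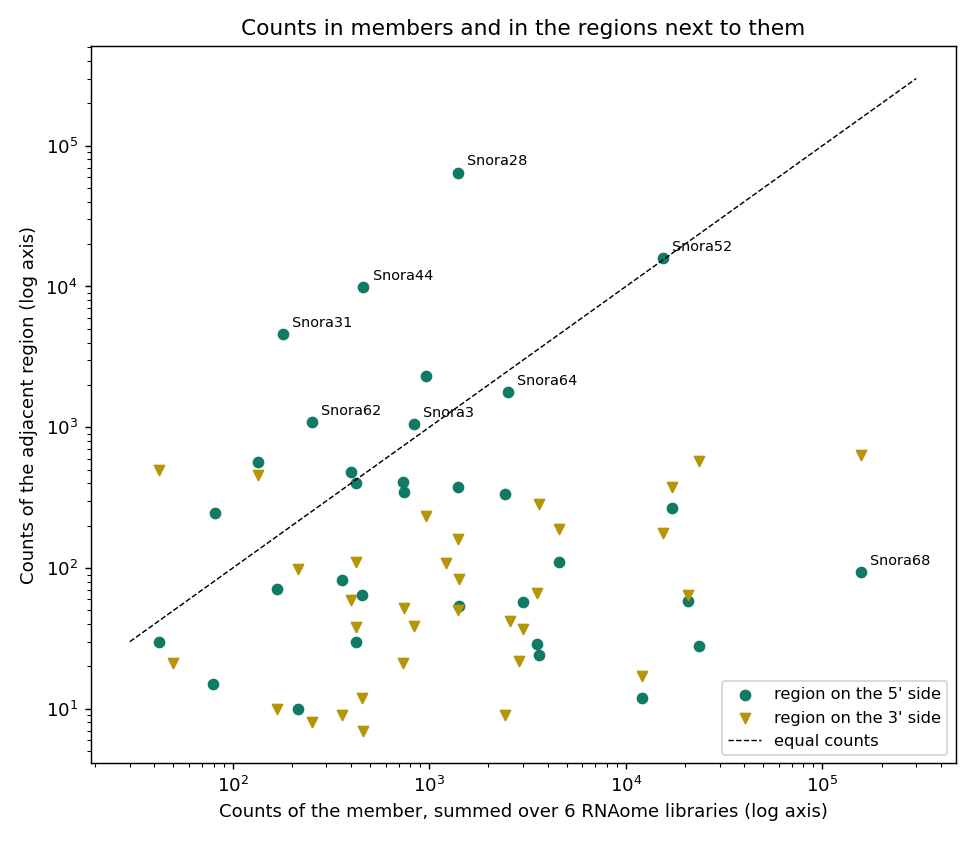
Each point is a region next to a member; the horizontal axis gives the counts of the member and the vertical axis those of the region, both summed over the 6 RNAome libraries on log axes, with a dashed line at equality. Regions on the 5′ side of Snora28, Snora44, Snora31 and Snora62 lie far above the line and that of Snora68 far below it.

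The contrast between a member and its surroundings separated the assays. For 39 members in the RNAome libraries the count density in the member was compared with that in its adjacent regions. The density was higher in the member for 33 of 39, with a median ratio of 28.1. Snora34 reached 2295 and Scarna3b reached 1035, whereas Snora44, with the region described above, was lowest at 0.0520. The regions differed widely in length. Scarna3b had 423 counts beside 68 spread over 20796 bases, Snora34 had 12047 beside 29 over 652 bases, and the regions of Snora44 covered 130 bases. In the mRNA libraries the ratio could be formed for 16 members and ranged from 0.25 for Snora41 to 1.37 for Snora52, with a median of 0.926. Of the 16 members with a ratio in both assays, 13 had the higher ratio in the RNAome libraries. The other 3 were Snora28, Snora31 and Snora44, whose 5′ regions hold most of the nearby RNAome counts. For several of the 16 members the adjacent regions listed differed between the assays, so their ratios are not like for like. Snora52 had 2 regions of 2130 bases together in the RNAome libraries and 1 of 2072 bases in the mRNA libraries. At the median of these 16 members, then, rows in the poly(A) libraries were covered about as densely as the sequence beside them. The 25 members without a row in the mRNA libraries are left out, so this does not describe the members as a whole.

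**Figure D3:**
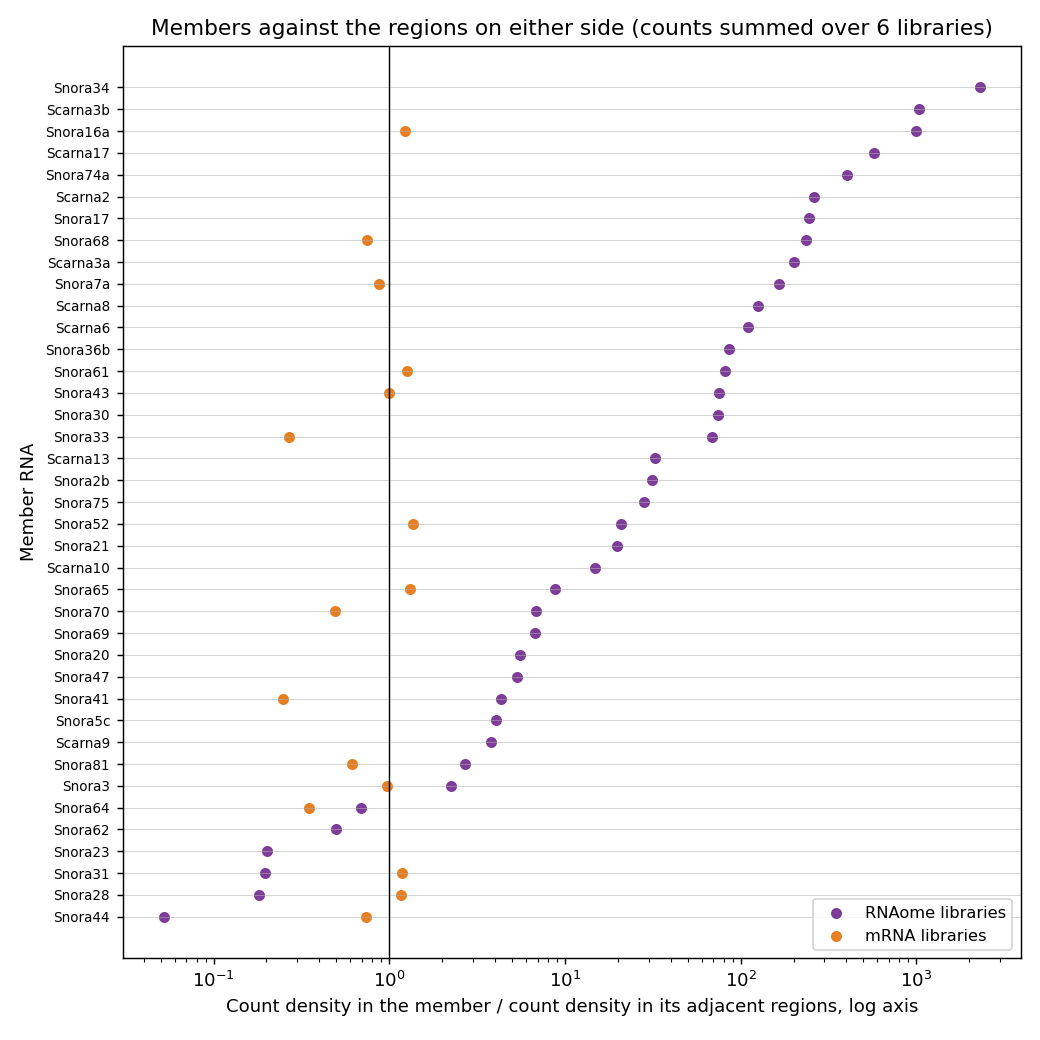
For each member the count density (counts per base, summed over 6 libraries) is divided by that of its adjacent regions, on a log axis, with purple points for RNAome and orange points for mRNA libraries; the vertical line marks equal density. Orange points lie between 0.25 and 1.37, and purple points spread up to 2295.

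The assays were compared in a fit over genes present in both tables. All 19 members tested were higher in the RNAome libraries, where 32.3% of the 13070 genes tested were called higher (66.7% in either direction). The filter on low counts let a row in on the counts of either assay. Snora24 did not pass it in the mRNA libraries alone, so its call is not independent of the filter. The other members passed in each assay alone. The difference in level was a median of 7.67 on the log2 scale, from 4.69 for Snora31 to 14.21 for Snora68, and the median of all genes was −0.03. Without the TMM factor the all-gene median moved to −2.32 and that of the members to 5.37, and again all 19 were called higher. These differences come from a scaling over the 12 libraries together, whereas the CPM values elsewhere were scaled within each assay, so CPM of the 2 assays are not to be divided by each other. Ribosomal RNA depletion and poly(A) selection, sizing and adapters all differ between the assays and cannot be told apart here.

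The mRNA libraries held few member counts. Of the 19 members, 15 had fewer than 100 counts over 6 libraries, the median was 72 and the total 1953. Snora65 led with 535 counts and 62.4 ± 10.04 CPM per kb (SD, n = 6), and every library of it stood above every library of Snora61, the next at 18.3 ± 4.85. Snora68, at 15.0 ± 3.71, came after both here. Snora81 (11.1 ± 2.09), Snora28 (10.1 ± 2.95), Snora70 (9.84 ± 2.61), Snora31 (9.84 ± 3.78) and Snora7a (9.60 ± 3.21 CPM per kb) followed and were not separated from each other. Snora24 did not pass the filter, which left 18 members for the test.

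Cisplatin was compared with DMSO first in the RNAome libraries. None of the 41 members passed edgeR's quasi-likelihood test at an adjusted p under 0.05, where 2.04% of 9978 genes did (0.972% higher and 1.07% lower). At an unadjusted p under 0.05 there were 3 members, and DESeq2 called 0 with 1 member at an unadjusted p under 0.05. The median log2 change of the members was −0.08 beside −0.003 over all genes, with 16 above 0 and 25 below. Leaving out each library in turn gave medians from −0.26 to 0.16, above 0 without control 8.5.16 (0.16) or cisplatin 8.3.3 (0.08), so the median had no stable sign. In each of the 41 the cisplatin and control values overlapped, whereas 9.93% of tested genes had all cisplatin libraries higher and 9.14% all lower.

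The scaRNAs spread most. Scarna8, an RNA of the Cajal body group, was at 6.70, 5.84 and 8.18 CPM after cisplatin and at 4.35, 5.87 and 3.30 CPM in the controls. Only control 8.5.16 reached into the cisplatin range. Its log2 change was 0.58 ± 0.22 (SE), with an adjusted p of 0.235 by edgeR. Scarna2, the longest member at 414 bases, was at 15.6, 14.6 and 25.7 CPM after cisplatin and at 8.88, 18.3 and 9.91 CPM in the controls. Control 8.5.16 again lay inside the cisplatin range, and the change was 0.54 ± 0.25 with an adjusted p of 0.346. It was 0.25 without cisplatin 8.5.3 and 0.96 without control 8.5.16 (adjusted p of 0.0606), and adjusted p ran from 0.0606 to 0.738 over the libraries left out. Scarna9 went the other way at 6.52, 8.36 and 20.1 CPM after cisplatin and 22.1, 19.8 and 12.4 CPM in the controls. Cisplatin 8.5.3 was as high as the controls, and the change was −0.66 ± 0.31 with an adjusted p of 0.347. Without cisplatin 8.5.3 the change of Scarna9 was −1.26 and passed the test with an adjusted p of 0.00984. Its counted span was 42 of the 70 bases of its GENCODE gene. Its fragments in the RNAome small RNA table, a readout of the same libraries described below, changed by 1.21 ± 0.64 with an adjusted p of 0.558 by edgeR. They were at 6.53, 18.6 and 51.7 CPM after cisplatin and 6.19, 12.6 and 13.3 CPM in the controls. Those in the SmallRNASeq libraries changed by −0.03 ± 0.14.

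Among the other scaRNAs, Scarna17 was at 86.3, 92.4 and 167 CPM after cisplatin and at 85.1, 104 and 67.3 CPM in the controls. Its change of 0.43 ± 0.24 had an adjusted p of 0.458, and without cisplatin 8.5.3, the highest library, it was 0.065. It was 0.28 without control 8.6.16 and 0.24 without the TMM factor. Scarna13 was at 19.9, 15.9 and 25.2 CPM against 12.3, 24.5 and 12.1 CPM, with control 8.5.16 near the top of the cisplatin range. Scarna3a was at 8.10, 10.7 and 8.73 CPM after cisplatin and 9.07, 12.4 and 8.10 CPM in the controls, whereas its near copy Scarna3b was at 4.60, 6.41 and 6.00 CPM against 3.78, 6.61 and 4.47 CPM. Scarna6 was at 28.2, 30.3 and 36.0 CPM against 34.0, 46.2 and 20.2 CPM, and Scarna10 at 27.2, 31.8 and 45.6 CPM against 31.6, 47.9 and 21.1 CPM. In these 4 the groups overlapped, and for Scarna6 and Scarna10 the controls ran both lower and higher than cisplatin. Over the 9 Scarna members the median change was 0.15, and over the 32 Snora members −0.09, with 10 Snora above 0 and 22 below.

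The abundant Snora members changed little against their spread. Snora43 was at 291, 290 and 396 CPM after cisplatin and at 278, 369 and 231 CPM in the controls. Snora16a was at 219, 283 and 291 CPM against 264, 379 and 210 CPM. Snora17 was at 194, 228 and 242 CPM against 197, 297 and 199 CPM. Control 8.5.16 was the highest of the controls in all 3. Snora52 was at 190, 233 and 197 CPM after cisplatin and 146, 202 and 193 CPM in the controls, a log2 change of 0.20 ± 0.19. Snora34 was at 132, 159 and 207 CPM against 212, 186 and 83.9 CPM, with control 8.6.16 less than all others. Snora74a was at 129, 147 and 183 CPM against 217, 224 and 140 CPM, a change of −0.34 ± 0.21 with an adjusted p of 0.533. The largest negative change of a Snora was that of Snora75, at −0.47 ± 0.28 and an adjusted p of 0.512 by edgeR. Snora75 was named after its values were seen. Its value of 32.9 CPM in control 8.6.16 lay below all others, which ran from 49.0 to 104 CPM, and without that library it was called lower, at −0.83 with an adjusted p of 0.0456 (0.444 to 0.857 without any other library).

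Adding the adjacent regions to the members left the result at 0 calls. This was done after the region counts had been seen, for regions of at most 600 bases that held part of the gene and no other annotated small RNA, and it touched 23 members. Snora28 with its regions had 46.8 times the counts and was at 577, 682 and 1246 CPM after cisplatin and 1036, 1475 and 561 CPM in the controls. Snora44 had 22.3 times the counts and was at 121, 148 and 175 CPM against 103, 155 and 83.1 CPM. For Snora44 the log2 change moved from −0.07 to 0.38 ± 0.22, and for Snora28 from 0.16 to −0.29 ± 0.34. For Snora52 it moved from 0.20 to −0.09. None of these changes passed the test.

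In the mRNA libraries 2 of the 18 members tested were called, 1 higher and 1 lower, where 37.2% of 14083 genes were called (18% higher and 19.2% lower). The median change was −0.04 beside 0.01 over all genes, 0.06 without the TMM factor (all genes 0.11), 0.02 with adjacent regions and −0.24 without control 8.5.16. Without the TMM factor the split of all calls moved from 2536 higher and 2699 lower to 3853 and 1688.

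Snora65 was at 8.03, 9.05 and 8.01 CPM after cisplatin and at 6.44, 6.69 and 5.95 CPM in the controls. All cisplatin libraries were higher than all controls, a log2 change of 0.40 ± 0.14 with an adjusted p of 0.0391 by edgeR. The call was lost in DESeq2 (adjusted p of 0.144) and with the shared start of the sample codes as a block (adjusted p of 0.0552). It was also lost with the deposited abundance counts (436 in place of 535) and when any of the 6 libraries was left out. When the regions beside Snora65 were added, the change was 0.23 ± 0.11 and again not called. Its 234-base 5′ region held 651 mRNA counts and its 78-base 3′ region 421, beside 535 in the member. The host transcript Rpl12 had a change of 0.09 with an adjusted p of 0.186.

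Snora52 was at 0.556, 0.217 and 0.293 CPM after cisplatin and at 0.873, 0.906 and 0.991 CPM in the controls. All controls were higher than all cisplatin libraries, on 46 counts in total. The log2 change was −1.36 ± 0.43 with an adjusted p of 0.0228. DESeq2 gave an adjusted p of 0.133, and leaving out control 8.5.16, cisplatin 8.5.3 or cisplatin 8.4.3 ended the call. Its host Rplp2 had a change of 0.01 with an adjusted p of 0.837. In the RNAome libraries Snora52 had a change of 0.20 ± 0.19, and −0.09 ± 0.22 with its adjacent regions, so no direction was set there. The difference between the changes in the assays was 1.54 ± 0.51 with an adjusted p of 0.643 by edgeR.

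Groups also did not overlap for Snora7a, Snora16a and Snora33, none of which passed the test. Non-overlap with cisplatin higher held for 3 of the 18 members and for 24.9% of tested genes, and with cisplatin lower for 2 of 18 and 23.9%. Snora7a was at 1.91, 1.38 and 1.37 CPM after cisplatin and 1.09, 0.697 and 0.991 CPM in the controls, with an adjusted p of 0.0660. It was called only without the TMM factor, and with its adjacent regions the change fell from 0.78 to 0.07. Snora16a was at 1.27, 1.38 and 1.27 CPM against 0.873, 0.906 and 0.991 CPM, with an adjusted p of 0.221. Snora33 was at 0.318, 0.652 and 0.586 CPM after cisplatin and 0.982, 0.976 and 0.909 CPM in the controls, with an adjusted p of 0.0926. Its host Rps12 had a change of 0.06.

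**Figure D4:**
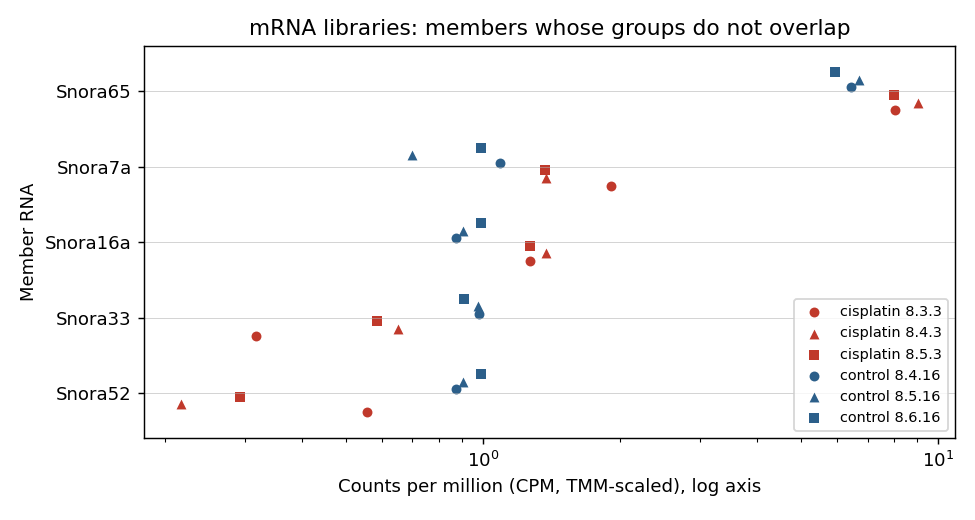
The 5 members tested in the mRNA libraries whose cisplatin (red) and control (blue) values did not overlap are shown with each library's TMM-scaled CPM on a log axis. Snora65 lies at 5.95 to 9.05 CPM and the other 4 below 2 CPM.

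**Figure D5:**
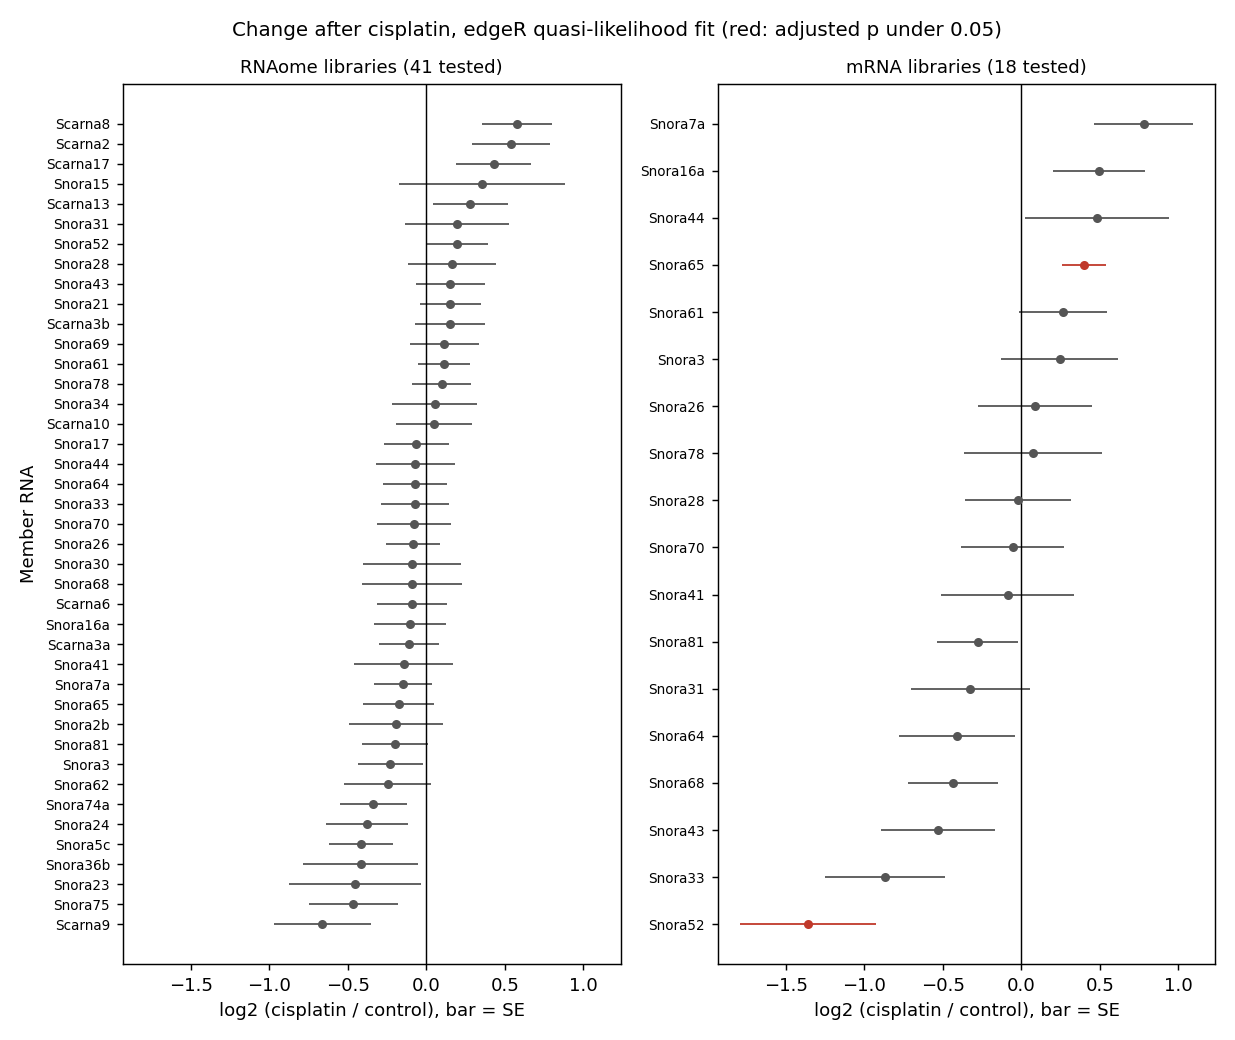
Points give the log2 ratio of cisplatin to control for each tested member in RNAome (left) and mRNA (right) libraries, with bars of 1 SE, and red marks an adjusted p under 0.05. No member is red on the left, and on the right Snora65 lies above 0 and Snora52 below it.

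Whether cisplatin acted differently in the assays was tested by an interaction term on 12 libraries. None of the 19 members was called by edgeR, and neither was any of the 13070 genes (0%). At an unadjusted p under 0.05 there were 2 members, Snora52 and Snora7a. With the RNA sample as replicate block 13 genes and 0 members were called, and without the RNAome library of control 8.4.16 there were 42 genes and again 0 members.

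Host transcripts were read beside the members they carry. A member and its host were both tested for 16 pairs in the mRNA libraries, with 14 different hosts. Of these hosts 2 were called, where 37.2% of genes were, both lower: Eif4a2, host of Snora81, at −0.48 and Eif5, host of Snora28, at −0.13. Snora81 itself had −0.28 with an adjusted p of 0.434. Over all members, also those without a tested row of their own, 27 hosts were tested in the mRNA libraries. Of these, 8 were called lower and 0 higher, where 19.2% of genes were called lower and 18% higher. Besides Eif4a2 and Eif5, the hosts called lower were Ncapd2, Dcaf5, Ncl, Tcp1, Ipo7 and Rab3gap2. The host calls were not read without the TMM factor, a change that moved the split of all calls. In the RNAome libraries 28 pairs were tested and 0 of the 25 hosts were called by edgeR, where 2.04% of genes were.

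The proteins that work with these RNAs were read from a list of 32 genes. In the mRNA libraries 4 of 30 tested were called higher and 9 lower, where 18% and 19.2% of all genes were, with a median of −0.06. Without the TMM factor the list had 8 higher and 3 lower, so its balance of directions depends on the scaling. Dyskerin (Dkc1), the pseudouridine synthase of the complex, was at 264, 252 and 256 CPM after cisplatin and 306, 279 and 305 CPM in the controls. Its groups did not overlap, and it fell by 0.21 on the log2 scale with an adjusted p of 0.00453, but the call was lost without the TMM factor (adjusted p of 0.0925). The other core proteins Nop10, Gar1 and Nhp2 had changes of −0.08, −0.08 and 0.05 and were not called. Without the TMM factor Nop10 and Gar1 turned to 0.01 and 0.02, and Nhp2 was called higher.

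The assembly factors Naf1, Shq1 and Nolc1 were called lower, at −0.26, −0.32 and −0.22. In the Cajal body group Wrap53, which brings scaRNAs and telomerase RNA to the Cajal body, was at 39.3, 39.7 and 40.5 CPM after cisplatin and 24.7, 25.5 and 33.5 CPM in the controls. It rose by 0.51 ± 0.10 with an adjusted p of 0.00125. Ell was also called higher (0.24), and the coilin gene Coil (−0.20), Gemin5 (−0.25) and Sart3 (−0.25) were called lower. Of the end maturation genes Toe1 was called higher (0.22) and Tent4b (−0.21) and Dis3 (−0.24) lower. Calls for Nolc1, Shq1, Coil, Tent4b and Dis3 were lost without the TMM factor. Those of Ell and Toe1 were lost with DESeq2 (adjusted p of 0.0676 and 0.0833), and that of Toe1 also with RLE scaling and with no filter. Leaving out cisplatin 8.4.3, cisplatin 8.5.3 or control 8.5.16 ended the call of Ell, and leaving out cisplatin 8.3.3, cisplatin 8.4.3, control 8.4.16 or control 8.5.16 that of Toe1. With a library left out, Coil kept its call only when this was control 8.4.16. Tent4b lost its call without cisplatin 8.4.3, cisplatin 8.5.3, control 8.4.16 or control 8.6.16. Dis3 lost it without cisplatin 8.4.3 or cisplatin 8.5.3, and Shq1 without cisplatin 8.5.3 or control 8.6.16. Tert, the telomerase reverse transcriptase, was at 20.6, 23.5 and 25.3 CPM after cisplatin and 14.3, 14.6 and 15.4 CPM in the controls. It rose by 0.64 ± 0.10 with an adjusted p of 0.000234.

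In the RNAome libraries 0 of the 30 list genes tested were called by edgeR, where 2.04% of genes were, 2 had an unadjusted p under 0.05, and DESeq2 also called 0. Terc, the H/ACA RNA of telomerase, whose symbol keeps it outside the members, was at 260, 340 and 348 CPM after cisplatin and 467, 390 and 493 CPM in the controls. All cisplatin libraries were lower, but the change of −0.51 ± 0.21 had an adjusted p of 0.277. Dkc1 was at 31.0, 36.1 and 35.5 CPM against 48.4, 46.9 and 37.7 CPM, also without overlap, with −0.37 ± 0.16 and an adjusted p of 0.314. Wrap53 had 0.43 ± 0.23 with an adjusted p of 0.436.

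As a set beside the members, the C/D box snoRNAs of the RNAome table had a median change of 0.26 over 66 tested, with 51 above 0, and edgeR called 0 where 2.04% of genes were called (3 had an unadjusted p under 0.05). Of those in the mRNA libraries, 11 were tested with a median of −0.11 and 0 called, where 37.2% of genes were (1 had an unadjusted p under 0.05).

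The small RNA tables list fragments under the same RefSeq identifiers. The RNAome small RNA table comes from the same libraries as the RNAome long RNA table. The SmallRNASeq table comes from other libraries of the same RNA samples. The RNAome small RNA table listed 34 members with 18982 counts, 0.114% of the table, and the SmallRNASeq table listed 21 with 95482 counts, 0.165%. By edgeR 0 of 18 members tested in the RNAome small RNA table were called, where 0.174% of entries were (0.0158% higher and 0.158% lower). In the SmallRNASeq libraries 0 of 20 were called, where 0.474% of entries were (0.379% higher and 0.0947% lower). None of either had an unadjusted p under 0.05, and no other tool was run on these tables. The median changes were 0.48 (all entries 0.11) and −0.01 (all entries −0.04).

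Other members led the fragment counts than led the long RNA counts. Snora52 led the SmallRNASeq table with 7634, 7052 and 3712 counts after cisplatin and 8249, 4555 and 12271 in the controls. Snora16a followed with 3191, 3854 and 1843 counts against 4525, 2661 and 4600. Snora68, the leader of the long RNA table, had only 656, 914 and 419 counts against 995, 482 and 961. Scarna6 had 6981 fragment counts in all and Snora61 had 6275, more than Snora68 with 4427. In the RNAome small RNA table Snora16a led with 5170 counts, Scarna6 had 2779, Snora68 had 2358 and Snora52 had 2238.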

How the data were processed

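All deposited tables hold raw read counts per the authors' files, unnormalized whole numbers with a different total in each library. Per the submitters' processing notes Bowtie, TopHat and edgeR were used on build mm9; the notes give no role or version, and how reads were counted was not stated. RefSeq rows were named from the RefSeq gene table of GRCm38.p6 (17133 of 17787 RNAome and 18274 of 18943 mRNA rows), with 1 transcript kept per gene. Members were placed by GENCODE vM1, because the tables give no coordinates for RefSeq rows. The place and sequence of Snora68 are not reported here. Counts per kb use the counted span inferred from the gap between regions, or the GENCODE length where no span could be read.

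Tests used edgeR 4.0.16 (quasi-likelihood, TMM, filterByExpr, Benjamini-Hochberg over all genes tested, threshold 0.05) in R 4.3.3, with DESeq2 1.42.0 as an alternative. The CPM of a library is its count scaled by its TMM-corrected library size. Data were simulated with 200 changed genes drawn from all genes tested, and with the same composition in every library apart from these. The RNAome test recovered 59% of 2-fold and 94% of 4-fold changes over 9978 genes, with 3 false calls. The mRNA test recovered 90% and 97% over 14083 genes, with 13 false calls. These rates were not computed for the members, most of which had few mRNA counts, and do not describe them. Intervals and SEs cover these libraries only, since PCR copies are not separate molecules.

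Named members were, per assay, the 8 with the highest CPM per kb, those called, those whose groups did not overlap (at most 5 per direction) and every Scarna; of the partner list, each called gene, the core proteins and Terc. Members named outside this rule, such as Snora75, were picked after their values were seen. The members and lists were chosen with earlier results of these data known. Libraries of the mRNA and RNAome assays with the same code come from the same RNA sample: their deviations correlated at 0.039 to 0.170, each the highest for its library.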

Additional observations from a re-analysis of the deposited data

How the results depend on the processing

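The count of members called in the RNAome libraries was 0 in each setting run with all 6 libraries, and 0 to 1 leaving out each library (Scarna9 without cisplatin 8.5.3, Snora75 without control 8.6.16). In the mRNA libraries 2 were called, but 0 with DESeq2, 1 with the abundance table, 1 with overlapping adjacent regions added (chosen after seeing the data) and 0 to 1 leaving out each library. Signs turned for small changes. With total counts scaling the log2 change was −0.050 for Snora34 and −0.043 for Scarna10 in RNAome libraries, and 0.074 for Snora28, 0.040 for Snora70, 0.012 for Nop10 and 0.018 for Gar1 in mRNA libraries. With adjacent regions it was −0.088 for Snora52 (RNAome), 0.13 for Snora70 and 0.059 for Snora31 (mRNA). Leaving out each library gave, in RNAome libraries, −0.48 to 0.10 for Snora68, −0.011 to 0.35 for Snora43, −0.29 to 0.16 for Snora16a, −0.17 to 0.16 for Snora17, −0.26 to 0.30 for Snora34, −0.21 to 0.41 for Scarna10, −0.25 to 0.11 for Scarna3a and −0.36 to 0.23 for Scarna6. In mRNA libraries it gave −0.24 to 0.28 for Snora28 and −0.23 to 0.35 for Snora70. The cause was not tested, beyond fewer samples or other counts by construction. In the RNAome libraries total counts scaling left 7 genes higher and 43 lower, against 97 and 107. With the RNA sample as replicate block, all 19 members were higher in RNAome libraries (median 7.66) and 0 had an interaction. The codes 8.4.3 and 8.4.16, and 8.5.3 and 8.5.16, share a start, which the labels do not say marks pairs. With that start as replicate block, added after seeing the data, the treatment rests on these 4 libraries: 0 members were called in RNAome and 1 (Snora52) in mRNA libraries, and the RNAome change was −0.13 for Snora34 and −0.030 for Scarna10. The low mRNA counts limit what could be detected.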
